A study of Homo sapiens with 12 samples.

Results

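ABC multidrug efflux transporters are membrane pumps that use ATP to carry drugs, drug conjugates and endogenous anions out of cells. The 8 genes described here are ABCC1, ABCC2, ABCC3, ABCC4, ABCC5, ABCC10, ABCB1 and ABCG2, out of 18969 genes listed for each library. They were taken by gene symbol, with earlier results of these data known. ABCC3 and ABCC2 were chosen by their measured log2 fold changes in these libraries, which showed rises, so their differences are given as a description, without a test, and counts of genes that passed a test cover the other 6. All 8 had enough reads to be tested, with 26 to 3170 reads per gene and library.

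The cells were HCT116, an established line from a human colorectal carcinoma, and 12 RNA-seq libraries were made from them, 4 in each of 3 groups. UNC0642 recovery cells spent 24 h in methionine-free RPMI-1640 with serum and UNC0642, an inhibitor of the histone methyltransferases EHMT1 and EHMT2 (GLP and G9a), and then 24 h in complete medium without the inhibitor. DMSO recovery cells went through the same schedule with DMSO, the vehicle. The 0 h cells carry only that time label, which leaves unsaid if they were taken ahead of the restriction or when it ended. All groups are the same line in RPMI-1640 with serum, and no label gives the dose of UNC0642 or says whether the replicates were separate cultures. What the p-values weigh is therefore the variation among these libraries, and that may be technical.

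The pumps differ in cargo and in the side of the cell they face. ABCC1, ABCC2 and ABCC3 export glutathione, glucuronide and sulfate conjugates, ABCC2 through the apical membrane of intestinal and liver epithelium and ABCC1 and ABCC3 through the basolateral membrane. ABCC4 and ABCC5 also carry cyclic nucleotides and nucleotide analogues, ABCC10 carries taxanes among other drugs, ABCB1 (P-glycoprotein) exports uncharged and cationic drugs, and ABCG2 (breast cancer resistance protein) exports drugs, urate and porphyrins. In the gut the apical pumps among them limit the uptake of drugs and toxins, and in tumour cells the family is known for multidrug resistance.

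The deposited expected counts, RSEM's estimates of reads per gene, summed to 17882244 to 19939440 per library after UNC0642 recovery, 16181076 to 20179829 after DMSO recovery and 14658103 to 18246707 at 0 h. Of the 18969 genes, 12741 passed a filter on low counts and were tested. Of 7 epithelial markers, KRT8, KRT18, EPCAM, CDH1 and CDX2 were detected in every library, KRT20 reached at most 1.34 CPM (a count scaled to the library's total, adjusted by TMM factors), and VIL1, a brush border gene, was at or near 0, with at most 0.346 CPM. The summed level of the epithelial list was 4558 to 4753 CPM after UNC0642 recovery, 4543 to 4679 CPM after DMSO recovery and 4061 to 4149 CPM at 0 h. The summed level of 10 blood, fibroblast and endothelial markers was 28.2 to 36.0 CPM after UNC0642 recovery, 27.5 to 35.8 CPM after DMSO recovery and 21.3 to 43.9 CPM at 0 h. Of the 7 tested, 1 rose (COL1A1) and 2 fell (HBB and HBA1) after UNC0642 recovery, 2 rose (COL1A1 and VWF) and 5 fell after DMSO recovery, and none passed between the recovery groups. Of all tested genes, 23.4% rose and 23.6% fell after UNC0642 recovery, and 22.4% rose and 21.7% fell after DMSO recovery. Between the recovery groups 4.58% of all tested genes passed. Most of the summed level of the 10 markers came from COL1A1, and the leukocyte gene PTPRC lay between 0 and 0.122 CPM. COL1A2 exceeded 1 CPM in 6 libraries, which are replicates 3 and 4 of UNC0642 recovery, replicate 1 of DMSO recovery and replicates 1, 2 and 3 at 0 h. The part of these RNAs in the results was not tested beyond the fit without those 6 libraries, which leaves 1 library at 0 h and assumes that it varies like the other groups. In the deposited values, gene length exceeds effective length by a smaller gap in 5 libraries and a larger gap in 7. Replicates 1 and 4 of UNC0642 recovery, replicate 1 of DMSO recovery and replicates 3 and 4 at 0 h have the short gap.

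ABCC2, ABCC4 and ABCC5 were the members with a single start site in the RefSeq promoter table used here (GRCh38.p14), and their 250 bases before the start are shown because ABCC2 was higher in UNC0642 than in DMSO recovery libraries while ABCC4 and ABCC5 did not pass the test of that difference. The ABCC2 window lies at chr10:99782390-99782639 on the plus strand, the ABCC4 window at chr13:95301452-95301701 on the minus strand and the ABCC5 window at chr3:184017885-184018134 on the minus strand. Each is written in the direction of transcription. Capitals mark matches, on either strand, to the antioxidant response element core TGACNNNGC, the E-box CACGTG, the GC box GGGCGG, the CCAAT box CCAAT, the TATA box TATAAA or the cAMP response element TGACGTCA.
ABCC2: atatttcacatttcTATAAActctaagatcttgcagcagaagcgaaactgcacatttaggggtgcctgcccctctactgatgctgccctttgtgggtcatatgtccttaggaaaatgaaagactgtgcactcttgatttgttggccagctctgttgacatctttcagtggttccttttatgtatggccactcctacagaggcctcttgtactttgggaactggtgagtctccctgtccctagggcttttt
ABCC4: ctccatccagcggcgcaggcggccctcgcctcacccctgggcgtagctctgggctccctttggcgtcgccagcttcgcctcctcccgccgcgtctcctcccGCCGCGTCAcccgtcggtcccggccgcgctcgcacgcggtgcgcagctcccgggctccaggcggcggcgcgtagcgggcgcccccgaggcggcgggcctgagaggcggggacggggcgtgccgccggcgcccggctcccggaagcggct
ABCC5: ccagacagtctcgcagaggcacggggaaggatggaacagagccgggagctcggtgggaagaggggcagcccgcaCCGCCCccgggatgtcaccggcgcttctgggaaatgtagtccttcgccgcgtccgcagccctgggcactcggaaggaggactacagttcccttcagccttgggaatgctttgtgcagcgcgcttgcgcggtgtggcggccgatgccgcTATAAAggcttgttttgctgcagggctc
The ABCC2 window had 45.6% G and C, against a median of 58% over 35116 promoters, and its 1 match was a TATA box that began 236 bases before the start. The ABCC4 window had 80.4% G and C and 1 match to the antioxidant response element core, from 149 to 141 bases before the start. The ABCC5 window had 64.8% G and C, a GC box from 176 to 171 bases and a TATA box from 28 to 23 bases before the start. Of all promoters of that length, 10.7% held the TATA box, 10.9% the antioxidant response element core and 42.6% the GC box. The E-box was held by 6.34%, the CCAAT box by 32.0% and the cAMP response element by 1.65%. A match is a stretch of letters in the window and not a measured binding site.

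In TPM, the authors' measure of transcript abundance per length, ABCC1 was the most abundant member in every group and ABCB1 and ABCG2 were the least abundant. After UNC0642 recovery the mean level was 48.3 TPM for ABCC1, 28.8 for ABCC4, 25.6 for ABCC2, 13.4 for ABCC5, 12.2 for ABCC3, 11.6 for ABCC10, 1.96 for ABCB1 and 1.73 for ABCG2. After DMSO recovery it was 45.7 TPM for ABCC1, 29.3 for ABCC4, 14.0 for ABCC2, 13.6 for ABCC5, 11.1 for ABCC10, 10.4 for ABCC3, 1.78 for ABCB1 and 1.5 for ABCG2. At 0 h it was 45.4 TPM for ABCC1, 24.0 for ABCC4, 11.7 for ABCC2, 9.96 for ABCC5, 9.50 for ABCC10, 3.11 for ABCC3, 1.26 for ABCB1 and 0.888 for ABCG2. The ranges over 4 libraries overlapped between ABCC5 and ABCC3, ABCC3 and ABCC10, and ABCB1 and ABCG2 after UNC0642 recovery. After DMSO recovery ABCC2 and ABCC5, ABCC10 and ABCC3, and ABCB1 and ABCG2 overlapped, and at 0 h ABCC2 and ABCC5 and ABCC5 and ABCC10 did. The places of the 8 genes in each group were the same in FPKM, the other length-scaled unit deposited.

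**Figure D1:**
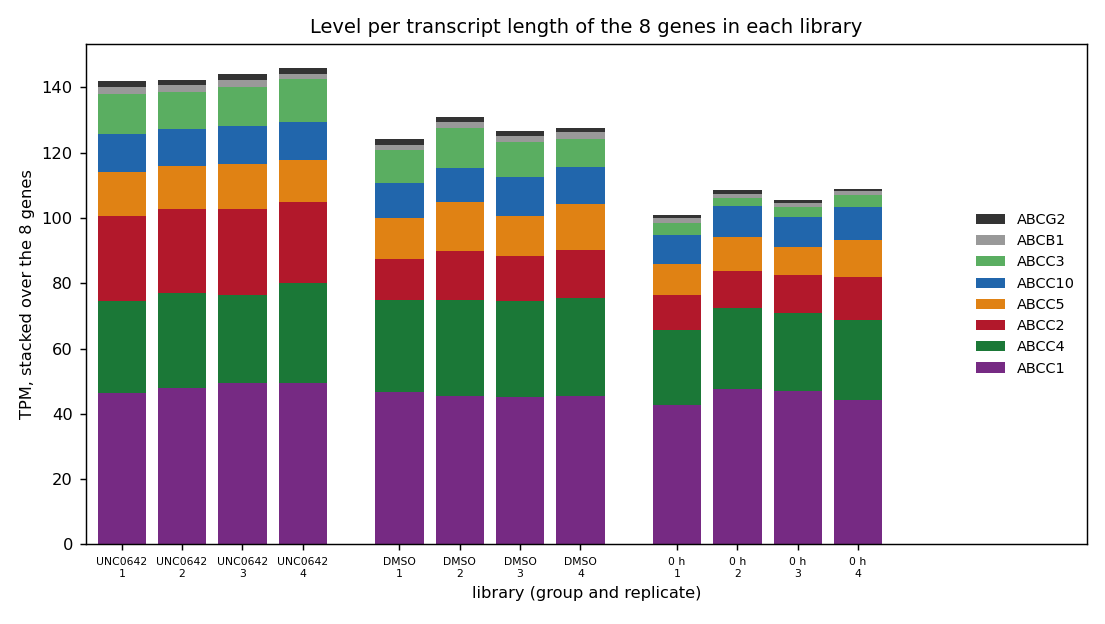
Levels of the 8 transporters in TPM (vertical axis), stacked for each of the 12 libraries, with the 4 UNC0642 recovery libraries on the left, the 4 DMSO recovery libraries in the middle and the 4 libraries at 0 h on the right. The stack stood at 142 to 146 TPM after UNC0642 recovery, 124 to 131 TPM after DMSO recovery and 101 to 109 TPM at 0 h, and the ABCC2 and ABCC3 layers differ most between the groups.

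The summed level of the 8 genes was 142 to 146 TPM after UNC0642 recovery and 124 to 131 TPM after DMSO recovery. At 0 h it was 101 to 109 TPM. Unlike the CPM, TPM carry no TMM factors. ABCC1 averaged 48.3 TPM after UNC0642 recovery and 45.4 TPM at 0 h, but 163 and 165 CPM. How much of the difference in the sum comes from the scaling was not tested. The sum holds the picked genes and is given without a test. ABCC2 made up 17.9% of it after UNC0642 recovery, against 11.0% after DMSO recovery and 11.0% at 0 h. ABCC3 made up 8.49% after UNC0642 recovery, 8.19% after DMSO recovery and 2.94% at 0 h. The share of ABCC1 was 33.6% after UNC0642 recovery, 35.9% after DMSO recovery and 42.9% at 0 h.

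The comparisons of each recovery group with 0 h ask what changed between the time labelled 0 h and the end of recovery. ABCC3 had the largest difference among the 8 in both, 3.55-fold after UNC0642 recovery and 3.03-fold after DMSO recovery. ABCC2 was 2.04-fold higher after UNC0642 recovery and 1.13-fold after DMSO recovery. Among the other 6 members, ABCC4, ABCC5, ABCB1 and ABCG2 rose after both recoveries, ABCC10 rose after UNC0642 recovery, and ABCC1 passed the test in neither. That makes 5 rises of 6 after UNC0642 recovery, where 23.4% of all tested genes rose and 23.6% fell, and 4 rises of 6 after DMSO recovery, where 22.4% of all tested genes rose and 21.7% fell. The median log2 fold change of these 6 was 0.23 after UNC0642 recovery and 0.22 after DMSO recovery, beside 0.01 over all tested genes in each. The 6 were not a blind choice, since the members were listed with earlier results of these data known. Their counts and median are therefore a description. These 6 are long genes, since 67.3% (for ABCC5) to 90.2% (for ABCC1) of tested genes are shorter. Corrected for length and GC content, 4 of the 6 rose and 1, ABCC1, fell in each comparison. Over all tested genes that correction gave 3046 rises and 2988 falls after UNC0642 recovery. After DMSO recovery it gave 2811 rises and 2901 falls. Both comparisons use the same 0 h libraries, so they are not independent. Fewer cells that express a gene and less RNA per cell cannot be told apart in these bulk libraries.

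**Figure D2:**
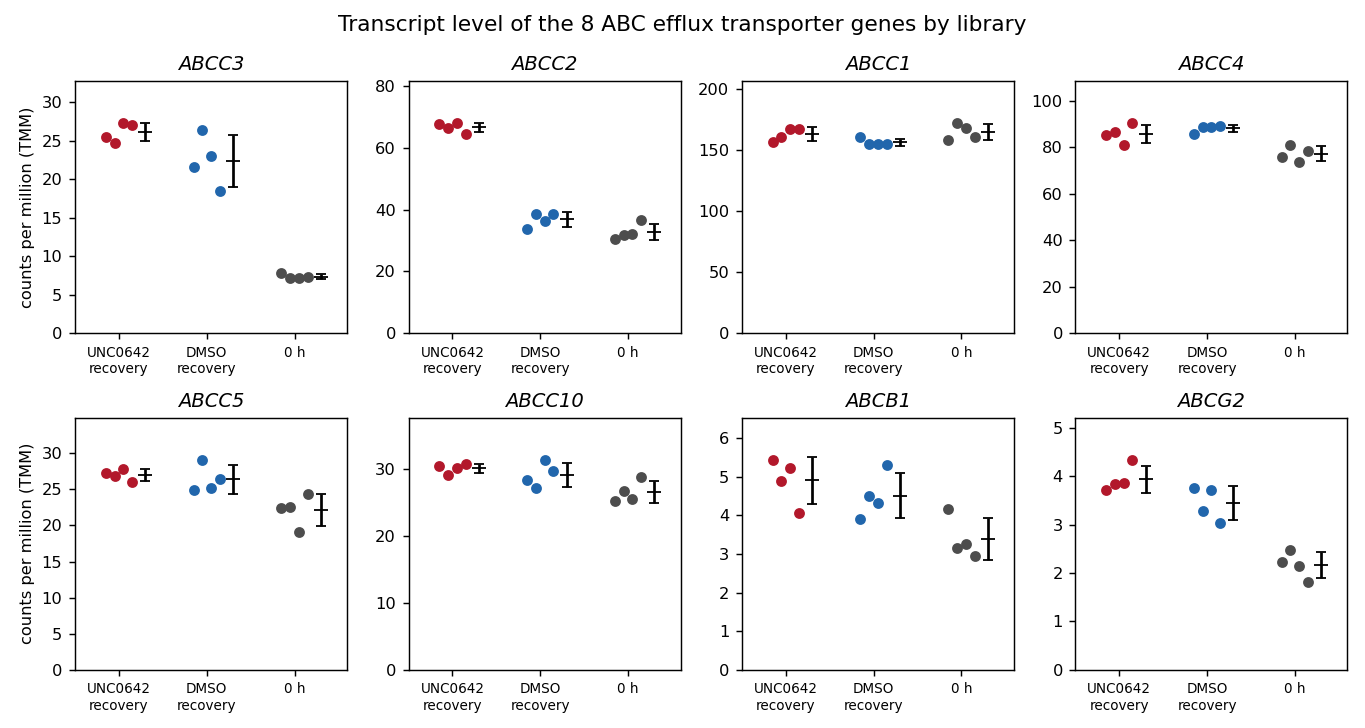
Normalized level of each transporter in CPM (vertical axes, starting at 0), 1 panel per gene, with 1 point per library and black marks for the mean and SD of 4, UNC0642 recovery on the left, DMSO recovery in the middle and 0 h on the right. ABCC2 stands at 64.5 to 68.1 CPM after UNC0642 recovery, above both other groups, while ABCC3 stands at 18.4 to 27.3 CPM in both recovery groups, against 7.09 to 7.80 CPM at 0 h.

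Of the exporters of conjugated anions, ABCC3, a basolateral pump for glucuronides and bile acids, had 25.4, 24.7, 27.3 and 27.0 CPM in the UNC0642 recovery libraries. It had 21.6, 26.4, 23.0 and 18.4 CPM in the DMSO recovery libraries and 7.80, 7.15, 7.09 and 7.29 CPM at 0 h. Every recovery library lay above every 0 h library, and the recovery groups overlapped. The mean was 26.1 ± 1.21 CPM after UNC0642 recovery, 22.4 ± 3.34 CPM after DMSO recovery and 7.33 ± 0.321 CPM at 0 h (SD, n = 4 each). The log2 fold change to 0 h was 1.83 ± 0.09 (SE) after UNC0642 recovery, or 3.55-fold, and 1.60 ± 0.09 after DMSO recovery, or 3.03-fold. By that value ABCC3 ranked 45th among all tested genes after UNC0642 recovery and 32nd after DMSO recovery. With log2(FPKM + 1) in place of counts the values were 1.47 after UNC0642 recovery and 1.29 after DMSO recovery, a scale that understates changes of low genes.

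ABCC2, the apical pump for bilirubin glucuronide and glutathione conjugates, had 67.6, 66.4, 68.1 and 64.5 CPM in the UNC0642 recovery libraries. It had 33.7, 38.7, 36.4 and 38.6 CPM in the DMSO recovery libraries and 30.5, 31.7, 32.1 and 36.6 CPM at 0 h. The UNC0642 libraries lay apart from the other 8 libraries, and the DMSO and 0 h libraries overlapped. The mean was 66.6 ± 1.58 CPM after UNC0642 recovery, 36.8 ± 2.36 CPM after DMSO recovery and 32.7 ± 2.68 CPM at 0 h (SD, n = 4 each). The log2 fold change to 0 h was 1.03 ± 0.05 (SE) after UNC0642 recovery, or 2.04-fold, and 0.17 ± 0.06 after DMSO recovery, or 1.13-fold. The difference of DMSO recovery from 0 h moved with the length-gap class, being 0.29 among the long-gap libraries and -0.03 among the short-gap libraries, of which only 1 is a DMSO library. Without the 6 libraries with COL1A2 above 1 CPM it was 0.04. That fit leaves only replicate 4 at 0 h, the highest of its group at 36.6 CPM. It has the short gap and the DMSO libraries left have the long gap. Leaving out the COL1A2 libraries thus cannot be told apart from the length gap.

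ABCC1, the widely expressed basolateral pump for glutathione conjugates and leukotriene C4, had 157, 160.4, 168 and 167 CPM in the UNC0642 recovery libraries. It had 161, 155, 155 and 155 CPM in the DMSO recovery libraries and 158, 172, 168 and 160.4 CPM at 0 h, so that all 3 groups overlapped. The log2 fold change to 0 h was -0.01 ± 0.03 after UNC0642 recovery (adjusted p = 0.743, edgeR's quasi-likelihood test with Benjamini-Hochberg adjustment) and -0.07 ± 0.03 after DMSO recovery (adjusted p = 0.0584). ABCC1 is among the longest of the tested genes, 90.2% of which are shorter, and log2 fold changes across genes went with gene length (Spearman 0.16 after UNC0642 recovery and 0.21 after DMSO recovery, across genes, which are not independent replicates). Corrected for length and GC content, ABCC1 was lower than at 0 h after UNC0642 recovery (log2 fold change -0.12, adjusted p = 0.00105) and after DMSO recovery (-0.17, adjusted p = 6.47e-06). With library totals alone as the scaling, the value after UNC0642 recovery was 0.05, so ABCC1 has no settled direction there.

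Of the pumps for cyclic nucleotides and nucleotide analogues, ABCC4, which also exports prostaglandins, had 85.3, 86.6, 80.9 and 90.3 CPM in the UNC0642 recovery libraries. It had 85.8, 88.7, 88.6 and 89.2 CPM in the DMSO recovery libraries and 75.7, 80.8, 73.4 and 78.3 CPM at 0 h. Both recovery groups lay above 0 h without overlap, as 20.1% of tested genes did after UNC0642 recovery and 19.3% after DMSO recovery. For UNC0642 recovery this was nearly a tie, between UNC0642 replicate 3 at 80.87 CPM and 0 h replicate 2 at 80.85 CPM. The rise was 1.11-fold after UNC0642 recovery (log2 fold change 0.15 ± 0.04, edgeR adjusted p = 0.00192) and 1.14-fold after DMSO recovery (0.19 ± 0.04, edgeR adjusted p = 0.000192). The call after UNC0642 recovery was lost among the long-gap libraries (log2 fold change 0.10, edgeR adjusted p = 0.176). It was also lost without the 6 libraries with COL1A2, which leaves 1 library at 0 h (log2 fold change 0.13). The call after DMSO recovery was lost among the short-gap libraries (0.18, adjusted p = 0.0583).

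ABCC5 had 27.3, 26.9, 27.8 and 26.0 CPM in the UNC0642 recovery libraries. It had 24.9, 29.1, 25.1 and 26.4 CPM in the DMSO recovery libraries and 22.5, 22.6, 19.1 and 24.3 CPM at 0 h. Each recovery library lay above the 0 h libraries, the nearest pair being DMSO replicate 1 and 0 h replicate 4. The rise was 1.22-fold after UNC0642 recovery (log2 fold change 0.29 ± 0.07, edgeR adjusted p = 0.000664) and 1.19-fold after DMSO recovery (0.25 ± 0.07, edgeR adjusted p = 0.00288). Without the 6 libraries with COL1A2 above 1 CPM, which leaves 1 library at 0 h, neither call held. The log2 fold change was then 0.15 after UNC0642 recovery and 0.13 after DMSO recovery. The 0 h library left, replicate 4, was the highest of its group at 24.3 CPM. The spread in that fit comes from the other groups, so it cannot decide whether either call depends on those libraries. Among the short-gap libraries the call after DMSO recovery was lost as well (0.20, adjusted p = 0.252).

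ABCC10, a pump for taxanes and other hydrophobic drugs, had 30.3, 29.1, 30.0 and 30.6 CPM in the UNC0642 recovery libraries. It had 28.3, 27.0, 31.3 and 29.6 CPM in the DMSO recovery libraries and 25.1, 26.6, 25.5 and 28.7 CPM at 0 h. The UNC0642 libraries lay above 0 h without overlap, and the DMSO libraries overlapped with 0 h. It was 1.14-fold higher after UNC0642 recovery (log2 fold change 0.18 ± 0.06, edgeR adjusted p = 0.0108) and 1.10-fold after DMSO recovery (0.14 ± 0.06, edgeR adjusted p = 0.0611). Corrected for length and GC content the value after UNC0642 recovery was 0.08 (adjusted p = 0.239). The call was also lost within the long-gap libraries (0.19, adjusted p = 0.0781) and within the short-gap libraries (0.17, adjusted p = 0.126). Without the 6 libraries with COL1A2, which leaves 1 library at 0 h, the log2 fold change was 0.05. That library, replicate 4, was the highest of its group at 28.7 CPM. The annotation of GENCODE 29 places 79 exonic bases of ABCC10 opposite those of DLK2, and without a known strand for the counting the reads there cannot be told apart. DLK2 had 28 to 55 reads per library over the 3 groups.

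ABCB1, the P-glycoprotein gene, had 5.44, 4.88, 5.23 and 4.07 CPM in the UNC0642 recovery libraries. It had 3.92, 4.51, 4.33 and 5.30 CPM in the DMSO recovery libraries and 4.17, 3.15, 3.27 and 2.94 CPM at 0 h. Replicate 1 at 0 h lay above the lowest library of each recovery group. The rise was 1.45-fold after UNC0642 recovery (log2 fold change 0.53 ± 0.15, edgeR adjusted p = 0.00453) and 1.33-fold after DMSO recovery (0.41 ± 0.16, edgeR adjusted p = 0.0297). The call after DMSO recovery was lost without 0 h replicate 2, 3 or 4 or without DMSO replicate 4 (log2 fold change 0.32 to 0.40, adjusted p = 0.0599 to 0.127) and in DESeq2 (adjusted p = 0.0575). It was also lost among the long-gap libraries (log2 fold change 0.37, edgeR adjusted p = 0.143). Among the short-gap libraries, with 1 DMSO library, it was lost too (log2 fold change 0.33). The same held without the 6 libraries with COL1A2, which leaves 1 library at 0 h (log2 fold change 0.68). The 0 h library left in that fit, replicate 4, was the lowest of its group at 2.94 CPM. The call after UNC0642 recovery was lost among the long-gap libraries (0.47, adjusted p = 0.0837).

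ABCG2, which exports urate and many drugs at the apical membrane, had 3.71, 3.84, 3.86 and 4.35 CPM in the UNC0642 recovery libraries. It had 3.76, 3.29, 3.71 and 3.04 CPM in the DMSO recovery libraries and 2.24, 2.48, 2.16 and 1.82 CPM at 0 h. Every recovery library lay above every 0 h library. The rise was 1.80-fold after UNC0642 recovery (log2 fold change 0.85 ± 0.17, edgeR adjusted p = 9.31e-05) and 1.57-fold after DMSO recovery (0.65 ± 0.17, edgeR adjusted p = 0.00215). The call after UNC0642 recovery held in each of 27 alternative settings, with adjusted p up to 0.0248. After DMSO recovery it was lost among the long-gap libraries, with a log2 fold change of 0.50 (adjusted p = 0.0827). It was also lost without the 6 libraries with COL1A2, which leaves 1 library at 0 h, with a log2 fold change of 0.86. That library, replicate 4, was the lowest of its group at 1.82 CPM.

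The comparison of UNC0642 recovery with DMSO recovery asks what the inhibitor added during the restriction changed in the recovered cells. ABCC2 was 1.81-fold higher, with a log2 fold change of 0.86 ± 0.05 (SE), at 66.6 ± 1.58 CPM after UNC0642 recovery against 36.8 ± 2.36 CPM after DMSO recovery. It ranked 54th among all tested genes by that value, and 5.05% of tested genes were higher without overlap of the groups. ABCC3 was 1.17-fold higher (0.23 ± 0.07), with overlap, since DMSO replicate 2 at 26.4 CPM lay above UNC0642 replicates 1 and 2. These values chose ABCC2 and ABCC3 or come from the same libraries, so neither has a test.

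**Figure D3:**
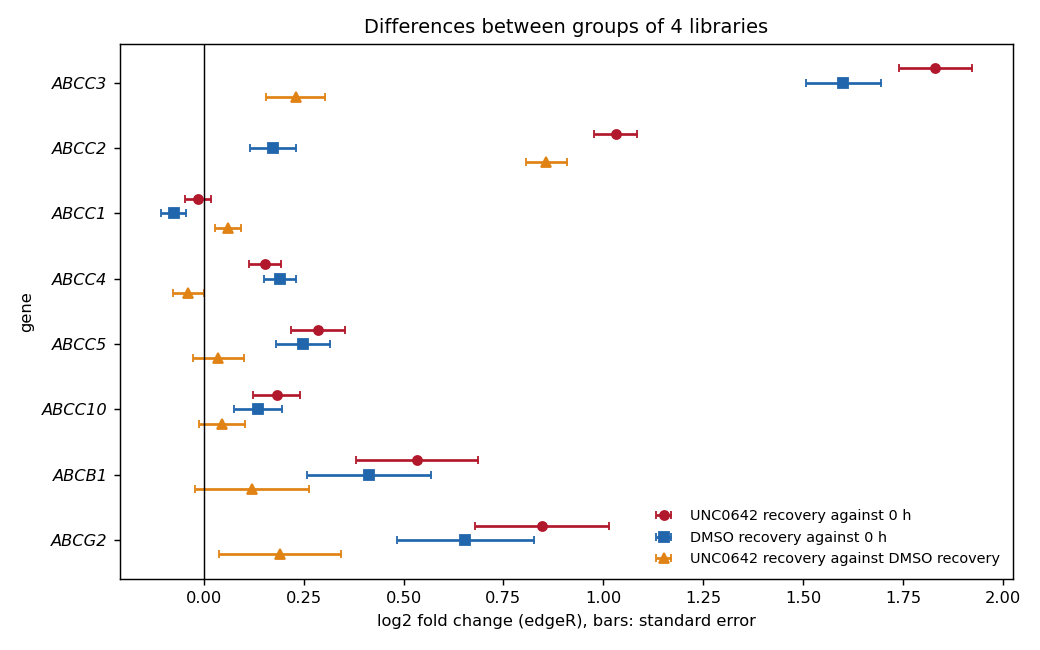
Log2 fold change of each transporter (horizontal axis), with standard errors as bars, for UNC0642 recovery against 0 h (circles), DMSO recovery against 0 h (squares) and UNC0642 against DMSO recovery (triangles). ABCC3 lies at 1.83 and 1.60 against 0 h, and ABCC2 at 0.86 against DMSO recovery, where the other 6 members lie between -0.04 and 0.19.

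None of the other 6 members passed the test between UNC0642 and DMSO recovery, where 4.58% of all tested genes did (262 higher and 322 lower). The count was also 0 at an unadjusted p under 0.05, and 0 in DESeq2 and limma-voom. The fold of UNC0642 over DMSO recovery was 1.04 for ABCC1 (95% interval 0.997 to 1.09), 0.974 for ABCC4 (0.922 to 1.03), 1.03 for ABCC5 (0.938 to 1.12) and 1.03 for ABCC10 (0.953 to 1.12). For the low members the intervals were wider, with a fold of 1.09 for ABCB1 (0.889 to 1.33) and 1.14 for ABCG2 (0.922 to 1.41). The edgeR adjusted p was 0.33 for ABCC1 and between 0.564 and 0.838 for the other 5.

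The deposited gene length, which RSEM weights by the abundance of a gene's transcripts, was compared for the 5 members with several transcripts. ABCC5 has transcripts of 5921 and 1923 bases in GENCODE 29, and its length was 3899, 4029, 3879 and 3985 bases in the UNC0642 recovery libraries. It was 3810, 3708, 3860 and 3640 bases in the DMSO recovery libraries and 4170, 3989, 4086 and 3932 bases at 0 h. The DMSO libraries lay below both other groups. The mean was 3948 ± 70.7 bases after UNC0642 recovery, 3755 ± 99.4 bases after DMSO recovery and 4044 ± 105 bases at 0 h (SD, n = 4 each). The two-sided exact permutation p was 0.0286 for UNC0642 against DMSO recovery and 0.0286 for DMSO recovery against 0 h, the smallest that 4 against 4 allows, and 0.171 for UNC0642 recovery against 0 h. Adjusted over the 15 comparisons made, both were 0.214, so neither passed. At 4 against 4, that adjustment can be passed only if most of the comparisons reach the smallest p. It therefore cannot decide whether the length of ABCC5 differed. Of 4632 tested genes with several transcripts, the groups did not overlap for 3.15% between UNC0642 and DMSO recovery, for 6.39% between UNC0642 recovery and 0 h and for 6.52% between DMSO recovery and 0 h.

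**Figure D4:**
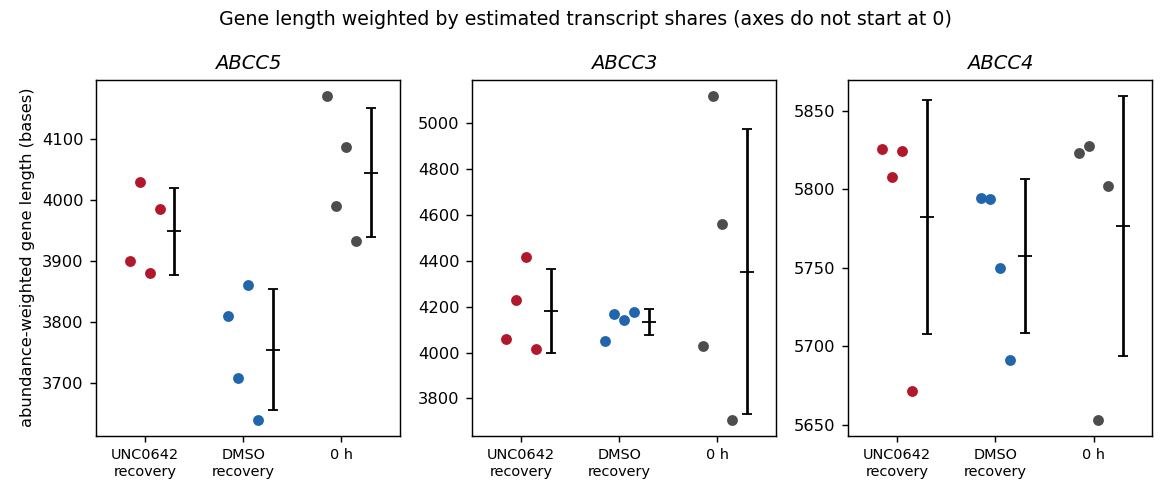
Abundance-weighted gene length in bases (vertical axes, which do not start at 0) of 3 transporters with several transcripts, with 1 point per library and black marks for the mean and SD of 4, UNC0642 recovery on the left, DMSO recovery in the middle and 0 h on the right. The ABCC5 points of DMSO recovery, 3640 to 3860 bases, lie below those of both other groups, and the ABCC3 points at 0 h spread from 3708 to 5120 bases.

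ABCC3 has transcripts of 5716 and 1881 bases in GENCODE 29. Its weighted length was 4182 ± 182 bases after UNC0642 recovery, 4134 ± 56.7 bases after DMSO recovery and 4354 ± 620 bases at 0 h (SD, n = 4 each). GENCODE 29 lengths need not match the annotation behind the deposited ones. ABCC2, with 1 transcript, has a deposited length of 5051 bases and 5806 bases in GENCODE 29. The 0 h libraries stood at 4027, 5120, 4559 and 3708 bases, so they spread the most where ABCC3 had the fewest reads. The exact permutation p was 0.629 to 0.686 over the comparisons. The groups of ABCC1, ABCC4 and ABCC10 overlapped in each comparison as well.

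Of 27 tested genes of the 40 in the rest of the ABC superfamily, 14 rose and 3 fell after UNC0642 recovery and 13 rose and 6 fell after DMSO recovery, with a median log2 fold change of 0.15 after UNC0642 recovery and 0.16 after DMSO recovery. Over all tested genes 23.4% rose and 23.6% fell after UNC0642 recovery, and 22.4% rose and 21.7% fell after DMSO recovery. ABCA3, a lipid transporter of lamellar bodies, had 9.96 ± 1.03 CPM after UNC0642 recovery, 7.74 ± 0.383 CPM after DMSO recovery and 3.33 ± 0.321 CPM at 0 h (SD, n = 4 each). It rose 2.97-fold after UNC0642 recovery (edgeR adjusted p = 1.46e-12) and 2.31-fold after DMSO recovery (edgeR adjusted p = 1.34e-09). ABCA1, the cholesterol efflux pump, was low, at 1.14 ± 0.525 CPM after UNC0642 recovery, 1.06 ± 0.513 CPM after DMSO recovery and 0.446 ± 0.145 CPM at 0 h. It passed against 0 h after UNC0642 recovery (edgeR adjusted p = 0.00644) and after DMSO recovery (edgeR adjusted p = 0.0144). The call after UNC0642 recovery was lost without UNC0642 replicate 3 and the call after DMSO recovery without DMSO replicate 2, and both were lost with log2(FPKM + 1), among the short-gap libraries and without the 6 libraries with COL1A2. TAP1, a peptide transporter of antigen presentation, rose by 0.48 ± 0.05 after UNC0642 recovery and by 0.39 ± 0.05 after DMSO recovery. Between UNC0642 and DMSO recovery 2 of the 27 passed, ABCA5 at 0.38 ± 0.10 (edgeR adjusted p = 0.0198) and ABCA3 at 0.36 ± 0.10 (edgeR adjusted p = 0.0311), beside 4.58% of all tested genes. Neither passed without DMSO replicate 3 or 4 or without UNC0642 replicate 1 or 4, and of 27 alternative settings the call was lost in 9 for ABCA5 and in 12 for ABCA3. ABCB4, the phospholipid pump next to ABCB1, had too few reads to be tested.

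**Figure D5:**
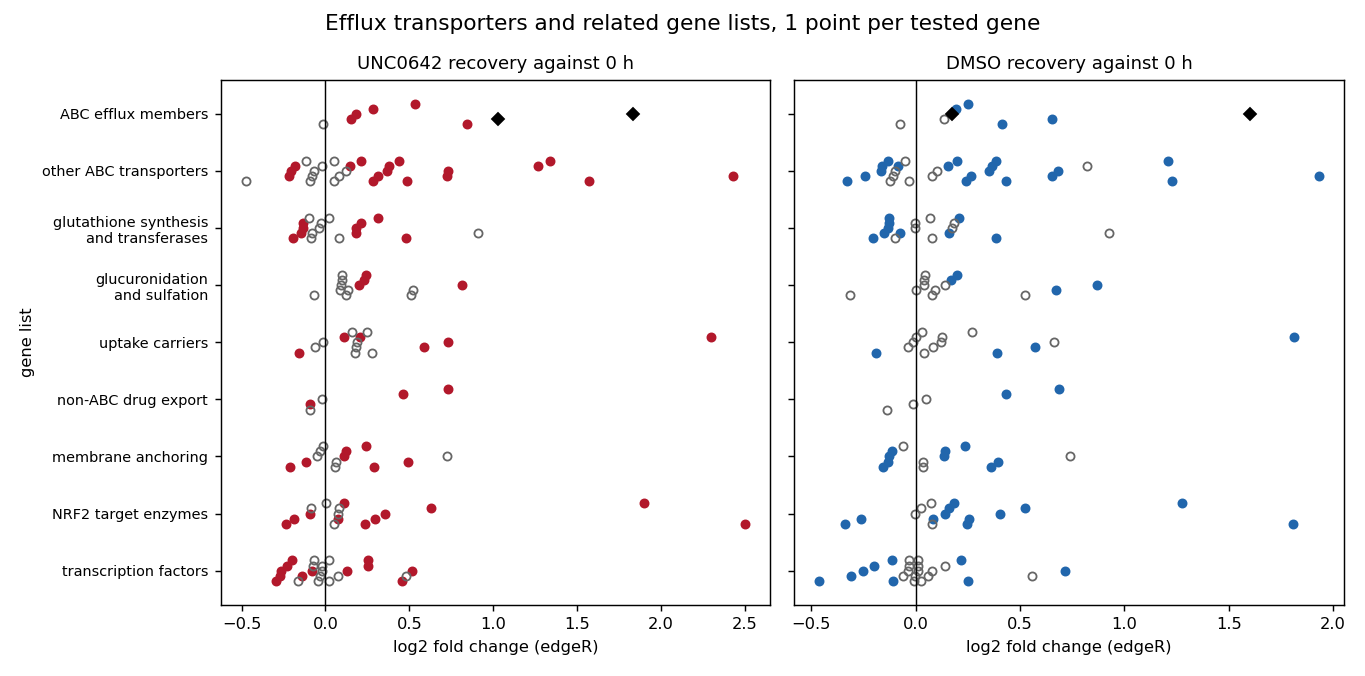
Log2 fold change of every tested gene (horizontal axis, 1 point per gene, filled in colour where it passed the test) in the efflux transporters and 8 related lists, for UNC0642 recovery against 0 h on the left and DMSO recovery against 0 h on the right. Black diamonds are ABCC2 and ABCC3, which were not tested, and the point farthest right among other ABC transporters is ABCA4, with a mean below 1 CPM in each group.

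Among the genes that make conjugated cargo for these pumps, 17 of glutathione synthesis and glutathione transfer were tested. Of these, 5 rose and 4 fell after UNC0642 recovery, where 23.4% of all tested genes rose and 23.6% fell, and 3 rose and 6 fell after DMSO recovery, where 22.4% of all tested genes rose and 21.7% fell. GSTP1, the main glutathione transferase of colon epithelium, fell by 0.19 ± 0.03 after UNC0642 recovery and fell by 0.21 ± 0.03 after DMSO recovery on the log2 scale. Of 13 tested genes of glucuronidation and sulfation, 4 rose after each recovery, and none fell. PAPSS2, which makes the sulfate donor, had 32.7 ± 1.25 CPM after UNC0642 recovery, 29.7 ± 1.32 CPM after DMSO recovery and 18.7 ± 1.11 CPM at 0 h (SD, n = 4 each). No gene of either list passed between UNC0642 and DMSO recovery, where 4.58% of all tested genes did.

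Of 14 tested uptake and bile acid carriers, 5 rose and 1 fell after UNC0642 recovery and 3 rose and 1 fell after DMSO recovery. The shares of all tested genes to set beside the counts of these lists are again 23.4% risen and 23.6% fallen after UNC0642 recovery, and 22.4% risen and 21.7% fallen after DMSO recovery. The organic cation transporter gene SLC22A18 rose by 0.73 ± 0.11 after UNC0642 recovery and 0.57 ± 0.12 after DMSO recovery, and the folate carrier SLC19A1 fell by 0.16 ± 0.04 after UNC0642 recovery and fell by 0.19 ± 0.04 after DMSO recovery. Of 5 tested genes of drug export outside the ABC family, 2 rose and 1 fell after UNC0642 recovery and 2 rose after DMSO recovery. MVP, the major vault protein, stood at 118 ± 5.23 CPM after UNC0642 recovery, 115 ± 4.70 CPM after DMSO recovery and 71.7 ± 3.99 CPM at 0 h (SD, n = 4 each). Of 13 genes that anchor transporters at the membrane, 5 rose and 2 fell after UNC0642 recovery and 5 rose and 4 fell after DMSO recovery. MYO5B, a motor of apical recycling, rose by 0.49 ± 0.04 after UNC0642 recovery and 0.36 ± 0.04 after DMSO recovery, while RDX (radixin), which holds ABCC2 at the apical membrane of mouse hepatocytes, fell by 0.21 ± 0.04 after UNC0642 recovery and fell by 0.16 ± 0.04 after DMSO recovery.

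Of 23 tested transcription factor genes known to regulate these transporters, 5 rose and 7 fell after UNC0642 recovery, beside 23.4% and 23.6% of all tested genes. After DMSO recovery 3 rose and 6 fell, beside 22.4% and 21.7% of all tested genes. Between UNC0642 and DMSO recovery 1 was higher and 2 were lower, beside 4.58% of all tested genes in either direction. NFE2L2, which encodes NRF2, an activator of ABCC genes under oxidative stress, had 110 ± 4.01 CPM after UNC0642 recovery, 106 ± 2.74 CPM after DMSO recovery and 121 ± 2.43 CPM at 0 h (SD, n = 4 each). It fell by 0.14 ± 0.03 after UNC0642 recovery and fell by 0.20 ± 0.03 after DMSO recovery, with edgeR adjusted p = 0.00107 after UNC0642 recovery and 1.6e-05 after DMSO recovery. The call of NFE2L2 after UNC0642 recovery was lost in 4 of 27 alternative settings, and that after DMSO recovery in none. The 4 were library totals, log2(FPKM + 1), the long-gap libraries and the fit without the 6 libraries with COL1A2. KEAP1, the inhibitor of NRF2, fell by 0.26 ± 0.03 after UNC0642 recovery and fell by 0.25 ± 0.03 after DMSO recovery. Between UNC0642 and DMSO recovery neither NFE2L2 (0.06 ± 0.03, edgeR adjusted p = 0.394) nor KEAP1 (-0.01 ± 0.03, edgeR adjusted p = 0.944) passed. The lipid receptor gene PPARA rose by 0.51 ± 0.09 after UNC0642 recovery and 0.72 ± 0.08 after DMSO recovery. PPARD was higher after UNC0642 than after DMSO recovery (0.17 ± 0.04), and TCF7L2 (-0.14 ± 0.03) and SP1 (-0.12 ± 0.03) were lower. The call of SP1 was lost in 10 of 27 alternative settings, with an adjusted p up to 0.45. The calls of PPARD and TCF7L2 were lost in 3 each, within either length-gap class and without the 6 libraries with COL1A2. Of 16 tested enzymes under NRF2, 8 rose and 3 fell after UNC0642 recovery and 10 rose and 2 fell after DMSO recovery. The ferritin gene FTH1, whose pseudogene copies make its level uncertain, rose by 0.63 ± 0.02 after UNC0642 recovery and 0.52 ± 0.02 after DMSO recovery.

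The genes whose pattern over the 12 libraries was most like that of ABCC3, by the root mean square difference of centred log2 CPM among 11437 candidates, were KRT7 (0.169), COL13A1 (0.173), MAP2 (0.21), CCDC80 (0.214) and ABCA3 (0.214). The pattern of ABCC3 itself has a root mean square of 0.815. KRT7, a simple epithelial keratin, averaged 85.4 CPM after UNC0642 recovery, 76.1 CPM after DMSO recovery and 21.7 CPM at 0 h. Most like ABCC2 were CPA4 (0.12), ZBED2 (0.136), SH3TC2 (0.19), NRG1 (0.193) and C1orf116 (0.204), beside a root mean square of 0.456 for ABCC2. CPA4, a carboxypeptidase, averaged 136 CPM after UNC0642 recovery, 87.2 CPM after DMSO recovery and 74.8 CPM at 0 h, and ZBED2 averaged 47.8 CPM after UNC0642 recovery, 27.0 CPM after DMSO recovery and 24.7 CPM at 0 h. These lists name the closest of many genes and have no test.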

How the data were processed

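RNA of 12 HCT116 libraries was sequenced, grouped by the sample titles and treatment labels. The submitters' processing notes name RSEM 1.2.4, Bowtie and the build hg18, and the strand setting is not given in the sources used here. The deposited files give expected counts, TPM, FPKM, and abundance-weighted and effective lengths per gene, per the file headers.

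Expected counts were rounded and tested with edgeR 4.0.16 in R 4.3.3 (quasi-likelihood test, TMM factors, filterByExpr), fitting group means to the 12 libraries together. The test is two-sided, and a gene passed at a Benjamini-Hochberg adjusted p under 0.05 over 12741 genes. The scripts were tested on simulated data. The biological coefficient of variation was 3.44%. Counts of libraries within a group differed beyond counting noise (chi-square over its degrees of freedom was 2.02 to 3.55), so none looked like the same library sequenced again. That check cannot tell separate cultures from separate preparations of the same culture. CPM carry SDs over 4 libraries and log2 fold changes carry standard errors. Lengths were compared with an exact permutation test.

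The members and lists were chosen with earlier results of these data known. All 8 members are described. From each list and comparison the rule names up to 4 genes that passed, with the largest change and a mean of at least 1 CPM, and always NFE2L2, KEAP1, ABCA1 and ABCB4. The text gives part of these, and ABCA4 was named after its values were seen. The 5 genes most like ABCC3 and ABCC2 were named too. Promoters come from RefSeq (GRCh38.p14, 6 of 8 members matched), and transcript lengths and overlaps from GENCODE 29 on the same assembly. The files' build is hg18, so no coordinates were combined.

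There were 27 alternative settings of the test. Those of scaling and filtering were RLE factors, library totals, no filter, a stricter filter and effective-length offsets. Others took only the 8 libraries of a comparison, added a block for the replicate number, or left out each library in turn. Further ones were limma-voom (limma 3.58.1), DESeq2 1.42.0 and log2(FPKM + 1) in limma. The length-gap class entered as a covariate, or groups were compared within each class in a fit of all 12 libraries. There were 2 more. These 2, the fit without the 6 libraries with COL1A2 above 1 CPM and a correction for length and GC content (known for 90.7% of tested genes), were chosen after seeing the data.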

Additional observations from a re-analysis of the deposited data

Results flagged for a closer look

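Of 39 groups of 4 libraries, 4 had a library whose gap to the nearest of the others took up an unusually large part of the range of the group by Dixon's test, and chance flags about 1 in 20 groups. ABCC1 had 161 CPM (160.822) in DMSO recovery replicate 1, against 155 CPM in each of the other 3. ABCC4 had 85.8 CPM in the same library, against 88.6 to 89.2 CPM in the others. The weighted gene length of ABCC4 was 5671 bases in UNC0642 recovery replicate 4, against 5808 to 5826 bases in the others. It was 5653 bases in 0 h replicate 3, against 5802 to 5828 bases in the others. All 3 of these libraries have the short length gap, whose part in the values was not tested.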

How the results depend on the processing

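Of the 6 members tested, the count that passed was 5 for UNC0642 recovery against 0 h, 4 for DMSO recovery against 0 h and 0 for UNC0642 against DMSO recovery. Leaving out each library in turn gave 5 to 5 for UNC0642 recovery against 0 h, 3 to 5 for DMSO recovery against 0 h and 0 to 0 for UNC0642 against DMSO recovery. For UNC0642 recovery against 0 h the count was 2 within the long-gap libraries and 2 without the 6 libraries with COL1A2. For DMSO recovery against 0 h it was 2 within the long-gap and 1 within the short-gap libraries, and 1 without the 6 libraries. Corrected for length and GC content, the count was 5 against 0 h after either recovery, of which 4 rose and 1 fell. Over all tested genes 6034 passed with that correction after UNC0642 recovery and 5712 after DMSO recovery. The fit without the 6 libraries leaves 1 library at 0 h, so its counts cannot decide whether a call depends on those libraries. Comparisons within a length-gap class come from a fit of all 12 libraries with a mean per group and class. The short-gap class has 1 DMSO library, so the spread there comes from other libraries. Whether the lower member counts go beyond a general loss of calls with fewer libraries was not tested. The replicate numbers did not pair the libraries (correlations of same-numbered libraries -0.103 to 0.0445, and 1 of 12 libraries was closest to its own number), and with the replicate block the counts were 5 for UNC0642 recovery against 0 h, 4 for DMSO recovery against 0 h and 0 between the recovery groups. Over all genes, 5990 passed for UNC0642 recovery against 0 h (2836 without the 6 libraries), 5617 for DMSO recovery against 0 h (2702 in the short-gap class and 2987 without the 6 libraries) and 584 for UNC0642 against DMSO recovery (271 and 125 within the long-gap and short-gap classes, and 277 without the 6 libraries). The split into higher and lower genes moved with library totals alone, to 4072 and 1959 for UNC0642 recovery and 3825 and 1838 for DMSO recovery against 0 h, and with log2(FPKM + 1) to 3873 and 1885 for UNC0642 recovery and 3684 and 1698 for DMSO recovery. No setting moved the median of all genes by more than 0.0594. The log2 fold change of ABCC2 in DMSO recovery against 0 h reversed to -0.0297 in the short-gap class. That of ABCC1 in UNC0642 recovery against 0 h reversed to 0.0452 with library totals and 0.0413 with log2(FPKM + 1), and leaving out single libraries gave -0.0347 to 0.00844, positive without 0 h replicate 2 or UNC0642 replicate 1. Between UNC0642 and DMSO recovery, ABCC5 reversed to -0.0364 with effective-length offsets and -0.0320 with log2(FPKM + 1), and ABCC4 to 0.0332 in the short-gap class. ABCA1 reversed to -0.290 without the 6 libraries and ran from -0.253 to 0.438 without single libraries, and KEAP1 from -0.0376 to 0.00844. HNF4A in UNC0642 recovery against 0 h reversed to -0.0822 without the 6 libraries. The cause of these changes was not tested. ABCC1 in DMSO recovery against 0 h passed as lower in 7 settings (lowest adjusted p = 6.47e-06).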
